A study of Mus musculus with 12 samples.

Results

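The tumour suppressor p53 and 9 genes known for their link to it were followed in mouse 2-cell embryos cultured with a tankyrase inhibitor. The members, chosen by gene symbol, were Trp53, Mdm2, Mdm4, Cdkn1a, Ccng1, Sesn1, Sesn2, Zmat3, Phlda3 and Btg2, and all 10 were found among the 24918 gene entries of the RNA-seq table. Embryos had NSA(CF-1) mothers and B6SJLF1/J fathers and were taken as zygotes 16 to 20 h after the ovulating hormone hCG. The treated group was cultured in KSOM medium with 50 µM IWR1-endo, called IWR1 below, and the control group in the same medium with DMSO, both at 5% oxygen until 46 h after hCG. RNA-seq had 4 libraries per group, each from a separate collection of 10 pooled embryos, and ATAC-seq, in which a transposase cuts accessible DNA, had 2 libraries of 100 embryos per group. Tankyrase is a poly-ADP-ribosyltransferase that marks Axin, a negative regulator of Wnt signalling, for degradation. The IWR1 libraries are numbered 5 to 8 and the DMSO libraries 1 to 4, as in the table.

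p53 is a transcription factor that is kept at a low level by Mdm2, a ubiquitin ligase that marks it for degradation, and by Mdm4, a relative of Mdm2 that masks its activation domain and pairs with Mdm2. When cells are stressed, p53 escapes both and switches on genes for cell cycle arrest, metabolic restraint and cell death, and Mdm2 is itself such a target, which closes a feedback loop. In the early mouse embryo, oocyte transcripts are cleared while the embryo's own genome is activated at the 2-cell stage, so the levels below mix both sources.

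Total gene counts were 17963977 to 32931800 in the IWR1 libraries and 16606155 to 49672143 in the DMSO libraries. Levels are given as FPKM, fragments per kilobase of gene model scaled to library size, computed from the deposited counts. Of 14994 genes that passed the filter on low counts, 3494 (23.3%) rose and 3803 (25.4%) fell with IWR1 (edgeR quasi-likelihood test, Benjamini-Hochberg adjusted p under 0.05). With library totals alone 4052 rose and 3247 fell, and by DESeq2 4114 rose and 3904 fell, so which direction held more genes depended on these choices. Over these genes the median log2 fold change was 0.17, and 0.34 when libraries were scaled by their totals alone, so changes are relative to that shift and amounts per embryo are not known. Of 14 oocyte and embryo markers all had counts, with a summed level of 8625 to 14334 FPKM in IWR1 libraries and 15619 to 19635 FPKM in DMSO libraries, although 8 of the 14 rose and 2 fell. Among 10 blood and immune markers 5 were at 0 in all 8 libraries, including Ptprc, while the summed level was 41.4 to 62.6 FPKM in IWR1 libraries and 5.48 to 8.43 FPKM in DMSO libraries, and Cd68, Lyz2 and Cd74 rose. Sperm markers summed to 12.2 to 26.3 FPKM in IWR1 libraries and 0.677 to 1.91 FPKM in DMSO libraries. Cumulus and granulosa markers, with Amh, Inhba and Inhbb at 0, summed to 22.8 to 31.2 FPKM in IWR1 libraries and 34.2 to 53.2 FPKM in DMSO libraries, and oviduct and stroma markers to 71.9 to 145.7 FPKM in IWR1 libraries and 164.4 to 199.4 FPKM in DMSO libraries. The part of these markers in the results below was not tested.

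The promoters of 9 members are in the RefSeq table of build GRCm38.p6, with 12 start sites in all, and Zmat3 has no entry. They were searched from 250 bases upstream to 50 bases downstream for the p53 decamer, the consensus whose paired copies form a p53 response element, which reads the same on both strands. An exact decamer was present in 5 of the 12 promoters and in 8.36% of all 32851 promoters. A pair of decamers within 13 bases of each other and with at most 1 mismatch in total was present in 2 of the 12 and in 0.627% of all promoters. These 2 were that of Ccng1 and the upstream one of Cdkn1a. With 2 mismatches allowed the downstream Sesn1 promoter also held a pair, making 3 of 12 against 4.09% of all promoters. As the genes were gathered for being p53 targets, these matches describe the list and show no binding in embryos. The 250 upstream bases of a gene that rose (Ccng1), a gene that did not pass the test (Cdkn1a) and a pair that fell (Mdm2, Sesn1) are shown here for comparison, 5′ to 3′ in the direction of transcription, with exact decamers and paired decamers in capitals.
Ccng1 (chr11:40755287-40755536, minus strand): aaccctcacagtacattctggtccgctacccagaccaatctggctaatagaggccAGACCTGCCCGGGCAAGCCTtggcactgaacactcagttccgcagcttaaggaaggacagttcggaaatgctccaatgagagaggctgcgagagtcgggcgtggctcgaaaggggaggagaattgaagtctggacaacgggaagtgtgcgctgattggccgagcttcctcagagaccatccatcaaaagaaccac
Cdkn1a upstream start site (chr17:29090729-29090978, plus strand): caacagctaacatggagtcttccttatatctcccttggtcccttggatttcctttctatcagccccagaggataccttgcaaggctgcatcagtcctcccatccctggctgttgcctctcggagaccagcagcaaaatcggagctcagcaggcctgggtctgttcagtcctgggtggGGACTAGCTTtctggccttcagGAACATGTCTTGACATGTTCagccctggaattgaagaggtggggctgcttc
Mdm2 (chr10:117710759-117711008, minus strand): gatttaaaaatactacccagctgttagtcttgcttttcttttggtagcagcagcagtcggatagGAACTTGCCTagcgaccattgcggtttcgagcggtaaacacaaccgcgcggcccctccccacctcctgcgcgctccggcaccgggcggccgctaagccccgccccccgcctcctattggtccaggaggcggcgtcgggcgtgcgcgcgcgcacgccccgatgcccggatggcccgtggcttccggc
Sesn1 downstream start site (chr10:41887189-41887438, plus strand): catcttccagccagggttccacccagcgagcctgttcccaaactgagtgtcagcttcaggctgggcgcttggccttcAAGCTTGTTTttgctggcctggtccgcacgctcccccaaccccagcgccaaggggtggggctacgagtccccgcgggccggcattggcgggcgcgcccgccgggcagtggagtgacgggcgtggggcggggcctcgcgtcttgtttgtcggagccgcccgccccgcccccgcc
The upstream Cdkn1a promoter had exact decamers at positions -73 and -51, counted from the start site, themselves a pair without mismatch. The nearer of them was followed directly by a copy with 1 mismatch. The downstream Cdkn1a promoter had neither an exact decamer nor a pair, and counts cannot tell which start site was used. In Ccng1 a copy with 1 mismatch was followed without a gap by the exact one at -185. Mdm2 and the downstream start of Sesn1 had a single exact decamer in the window, at -186 and -173, and bases outside it were not searched. Trp53 also had a single one, at -75. GC content ranged from 43.0% in an Mdm4 promoter to 72.0% in that of Btg2, against a median of 59.3% over the 14946 promoters of genes tested. Both Mdm4 promoters were poor in CpG, with 4 and 9 in the window searched against a median of 18. The upstream Cdkn1a promoter had fewer, 2, and those of Trp53 and Ccng1 had 10 and 14. The promoters of Mdm2, Btg2 and Phlda3 had 35, 32 and 26.

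The members spanned a wide range of levels, headed in both groups by the inhibitors of p53 and not by p53. Mdm4 was at 1137 ± 59.6 FPKM in IWR1 and 834 ± 154 FPKM in DMSO (SD, n = 4 each), which placed it at the 99.7th and 99.4th percentile of the genes tested. Mdm2 came next in both groups and Cdkn1a after it, and the ranges of these 3 did not overlap. From Cdkn1a downward, neighbours in the order overlapped, except that in DMSO embryos Ccng1 and Zmat3, and Zmat3 and Phlda3, lay apart. Zmat3 was the lowest in IWR1, at 0.319 ± 0.123 FPKM, and Phlda3 the lowest in DMSO, with no count (SD, n = 4).

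**Figure D1:**
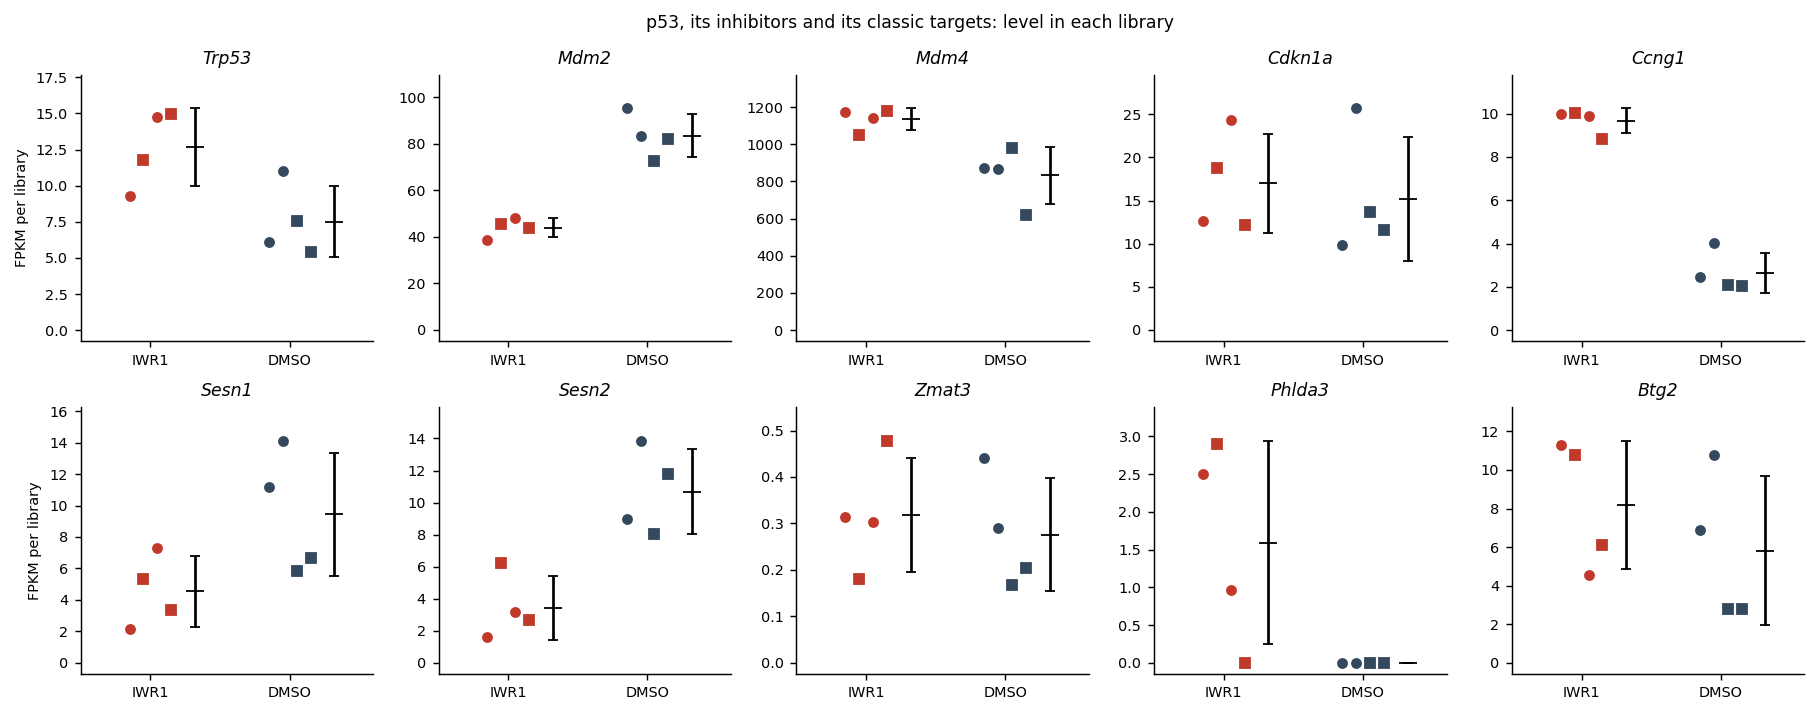
Level of each member in every library, in FPKM on linear axes, with IWR1 libraries in red and DMSO libraries in dark blue. Circles are the libraries with the lower totals of each group, squares those with the higher totals, and bars show the mean ± SD (n = 4). Ccng1 lay at 8.81 to 10.0 FPKM in IWR1 and 2.05 to 4.00 FPKM in DMSO, and Mdm2 at 38.6 to 48.2 FPKM in IWR1 and 72.8 to 95.5 FPKM in DMSO.

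Trp53 (gene ID 22059, mm10 chromosome 11, 69580348 to 69591873) encodes p53. Its levels were 9.27, 11.8, 14.7 and 15.0 FPKM in IWR1 libraries 5 to 8 and 6.09, 11.0, 7.56 and 5.42 FPKM in DMSO libraries 1 to 4. DMSO library 2 reached into the IWR1 range, so the groups overlapped. The log2 fold change was 0.58 (SE 0.27) and did not pass the test (edgeR adjusted p = 0.0953). Scaled by library totals alone it was 0.76 and passed (edgeR adjusted p = 0.0450). The antisense neighbour Wrap53, needed for telomerase trafficking, lies 98 bases away without overlapping the Trp53 model, and it fell by 1.37 on the log2 scale (SE 0.26).

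The inhibitors differed. Mdm2 (gene ID 17246, chromosome 10, 117688875 to 117710758) was at 38.6, 45.5, 48.2 and 43.7 FPKM in IWR1 libraries 5 to 8 and at 95.5, 83.5, 72.8 and 82.2 FPKM in DMSO libraries 1 to 4. Every IWR1 library was below every DMSO library. Mdm2 fell by 1.10 on the log2 scale (SE 0.15, edgeR adjusted p = 0.000102), a factor of 2.15. The fold change lay between -1.16 and -1.06 when any 1 library was left out.

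Mdm4 (gene ID 17248, chromosome 1, 132986105 to 133030587) was at 1173, 1051, 1143 and 1180 FPKM in IWR1 libraries 5 to 8 and at 872, 865, 981 and 617 FPKM in DMSO libraries 1 to 4. In FPKM the groups did not overlap, but after TMM scaling (trimmed mean of M-values, which corrects for composition) they did. Its log2 fold change of 0.26 (SE 0.19) did not pass the test (edgeR adjusted p = 0.274), with a range of 2 SE from -0.12 to 0.65. With library totals alone it was 0.45 and passed (edgeR adjusted p = 0.0408). DMSO library 4 was the lowest of the 8. The Mdm4 model overlaps the pseudogene Gm29257 and the long non-coding gene Gm41953, neither of them counted separately, and their part in its counts was not tested.

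Ratios within a library do not depend on how libraries are scaled to each other. The Mdm2 level was 4.17, 3.86, 3.27 and 2.92 times that of Trp53 in IWR1 libraries 5 to 8, against 15.7, 7.59, 9.63 and 15.2 times in DMSO libraries 1 to 4. The groups did not overlap, with means of 3.55 ± 0.561 in IWR1 and 12.0 ± 4.02 in DMSO (SD, n = 4 each). The log2 ratio differed by -1.70, IWR1 minus DMSO. A two-sided exact permutation test gave p = 0.0286, which 4 against 4 libraries cannot go below, and 0.0429 after adjustment over the 3 ratios tested. The Mdm4 level was 23.1 to 30.4 times that of Mdm2 in IWR1 libraries and 7.51 to 13.5 times in DMSO libraries. The log2 ratio of Mdm2 to Mdm4 differed by -1.39 (exact permutation test, two-sided, p = 0.0286, adjusted p = 0.0429). Both ratios hold Mdm2, so they are not independent of its own fall or of each other.

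**Figure D2:**
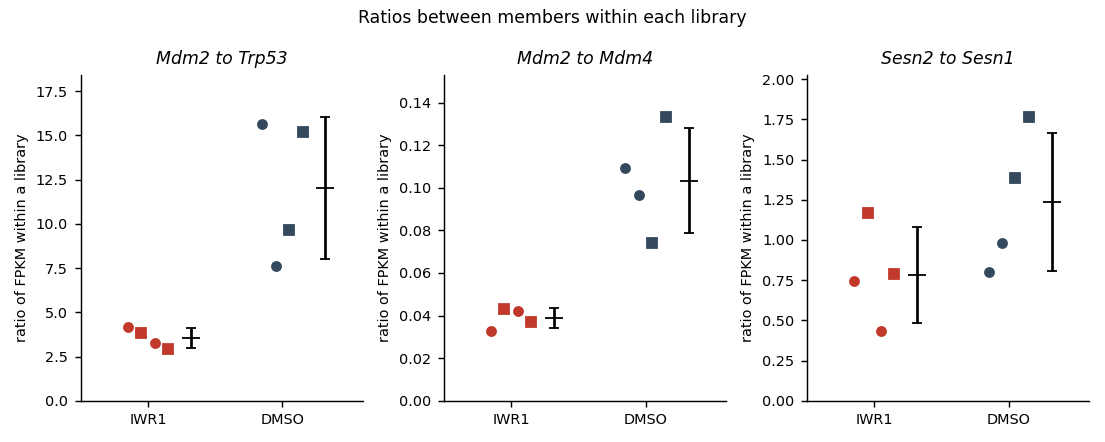
Ratio of FPKM between members within each library, on linear axes from 0, for Mdm2 to Trp53, Mdm2 to Mdm4 and Sesn2 to Sesn1. Points are libraries (circles lower totals, squares higher totals) and bars are the mean ± SD (n = 4). The first pair of ratios separates the groups, with Mdm2 to Trp53 at 2.92 to 4.17 in IWR1 and 7.59 to 15.7 in DMSO, while Sesn2 to Sesn1 overlaps.

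Genes of cell cycle arrest gave different readings. Cdkn1a (gene ID 12575, chromosome 17, 29090979 to 29100722) encodes p21, an inhibitor of cyclin-dependent kinases and the best-known p53 target. It was at 12.6, 18.8, 24.4 and 12.2 FPKM in IWR1 libraries 5 to 8 and at 9.87, 25.8, 13.7 and 11.6 FPKM in DMSO libraries 1 to 4. The ranges covered each other, and the highest value was in DMSO library 2. Its log2 fold change was -0.01 (SE 0.31, edgeR adjusted p = 0.982), with a range of 2 SE from -0.64 to 0.62. A change within that range is not excluded. The range is not adjusted for the number of genes tested, so larger changes could also be missed.

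Ccng1 (gene ID 12450, chromosome 11, 40748552 to 40755309) encodes cyclin G1, which brings the phosphatase PP2A to Mdm2. It had 9.99, 10.0, 9.87 and 8.81 FPKM in IWR1 libraries 5 to 8 and 2.47, 4.00, 2.08 and 2.05 FPKM in DMSO libraries 1 to 4. The lowest IWR1 library was above the highest DMSO library. Ccng1 rose by 1.71 on the log2 scale (SE 0.25, edgeR adjusted p = 0.000139), a factor of 3.28, and it was the single tested member that passed the test upward.

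Btg2 (gene ID 12227, chromosome 1, 134074865 to 134079155) encodes an antiproliferative protein that recruits the CCR4-NOT deadenylase. Its levels were 11.3, 10.8, 4.58 and 6.12 FPKM in IWR1 libraries 5 to 8 and 6.89, 10.8, 2.77 and 2.81 FPKM in DMSO libraries 1 to 4. In DMSO embryos the high values were those of the libraries with low totals, 1 and 2, as they also were for Mdm2, Ccng1, Sesn1 and Zmat3. The log2 fold change was 0.38 (SE 0.43, edgeR adjusted p = 0.482). It was -0.17 (adjusted p = 0.833) among the 4 libraries with low totals (IWR1 5 and 7, DMSO 1 and 2) and 1.27 (adjusted p = 0.0561) among the 4 with high totals, by the same edgeR test.

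Sesn1 and Sesn2 encode sestrins, stress proteins that restrain mTORC1 through the GATOR2 complex, and both genes fell. Sesn2 (gene ID 230784, chromosome 4, 132492804 to 132510456), a leucine sensor, was at 1.61, 6.22, 3.16 and 2.65 FPKM in IWR1 libraries 5 to 8 and at 8.98, 13.9, 8.04 and 11.8 FPKM in DMSO libraries 1 to 4. Every IWR1 library was below every DMSO library. Sesn2 fell by 1.82 on the log2 scale (SE 0.36, edgeR adjusted p = 0.00128). Among the 4 libraries with high totals the fold change was -1.47 and did not pass (edgeR adjusted p = 0.0610).

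Sesn1 (gene ID 140742, chromosome 10, 41810574 to 41908436) was at 2.17, 5.34, 7.28 and 3.38 FPKM in IWR1 libraries 5 to 8 and at 11.2, 14.1, 5.81 and 6.68 FPKM in DMSO libraries 1 to 4. IWR1 library 7 was above the lower pair of DMSO libraries in FPKM, so the groups overlapped. After TMM scaling every IWR1 library was below every DMSO library, with IWR1 library 7 close to the lowest of them. Sesn1 fell by 1.21 (SE 0.36, edgeR adjusted p = 0.0142), and the call was lost without DMSO library 2 (adjusted p = 0.0552), without IWR1 library 8 (adjusted p = 0.0507), and among the libraries with low or high totals alone (-1.46 and -0.84, adjusted p = 0.0706 and 0.136, edgeR). Armc2 lies 27 bases away, and counts cannot tell which of the 2 Sesn1 start sites was used. The ratio of Sesn2 to Sesn1 averaged 0.782 ± 0.300 in IWR1 and 1.23 ± 0.429 in DMSO (SD, n = 4 each), and the log2 difference of -0.66 did not pass an exact permutation test (two-sided, p = 0.143).

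Phlda3 (gene ID 27280, chromosome 1, 135766085 to 135769134) encodes a small protein that competes with Akt for membrane lipids. It had 66, 140, 29 and 0 counts in IWR1 libraries 5 to 8, which are 2.504, 2.90, 0.969 and 0 FPKM, and 0 counts in each DMSO library. Counts were thus present in 3 of 4 IWR1 libraries. With the DMSO group as a whole set to 3 counts, its 235 pooled counts put the IWR1 group 107-fold higher, and 64.9-fold higher without IWR1 library 6. It failed the filter on low counts and so was not tested with the other members. Without that filter its edgeR adjusted p was 0.00356, and the authors' deposited table gives it a log2 fold change of 8.44 with an adjusted p of 1.12e-05. Phlda3 has no DMSO count and enters either fit only through its IWR1 counts, so neither p-value adds support. These fold values pool counts over IWR1 libraries that ranged from 0 to 140, so they are not lower bounds for a single library. The immune and sperm markers named above were also higher in IWR1 libraries, and their part in the Phlda3 counts was not tested.

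Zmat3 (gene ID 22401, chromosome 3, 32334792 to 32365665) encodes an RNA-binding zinc finger protein that regulates splicing. It was at 0.315, 0.179, 0.302 and 0.478 FPKM in IWR1 libraries 5 to 8 and at 0.441, 0.291, 0.166 and 0.204 FPKM in DMSO libraries 1 to 4. The ranges overlapped and rested on 240 counts in IWR1 and 243 counts in DMSO over all 4 libraries each. The log2 fold change of 0.07 (SE 0.59) did not pass the test (edgeR adjusted p = 0.933), and 2 SE reach from -1.10 to 1.24. The counted long non-coding gene 4930429B21Rik overlaps its model, so its counts are uncertain without strand.

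Of the 9 members tested, 1 rose and 3 fell, which are 11.1% and 33.3% against 23.3% and 25.4% of all genes tested. In FPKM, 2 of the 10 members (Mdm4, Ccng1) had every IWR1 library above every DMSO library, and 28.3% of all genes tested did. Another 2 (Mdm2, Sesn2) had every IWR1 library below, and 22.0% of all genes tested did. Counts of this size are near the background and say nothing particular about these genes as a set. The median log2 fold change of the 9 was 0.07, against 0.17 over all genes tested. The authors' deposited table gives log2 fold changes of -1.06 for Mdm2, 1.76 for Ccng1, -1.17 for Sesn1 and -1.78 for Sesn2. For Trp53 it gives 0.63, which did not pass there either (DESeq2 adjusted p = 0.0565). In pooled embryos, fewer cells with a transcript and fewer copies per cell cannot be told apart.

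**Figure D3:**
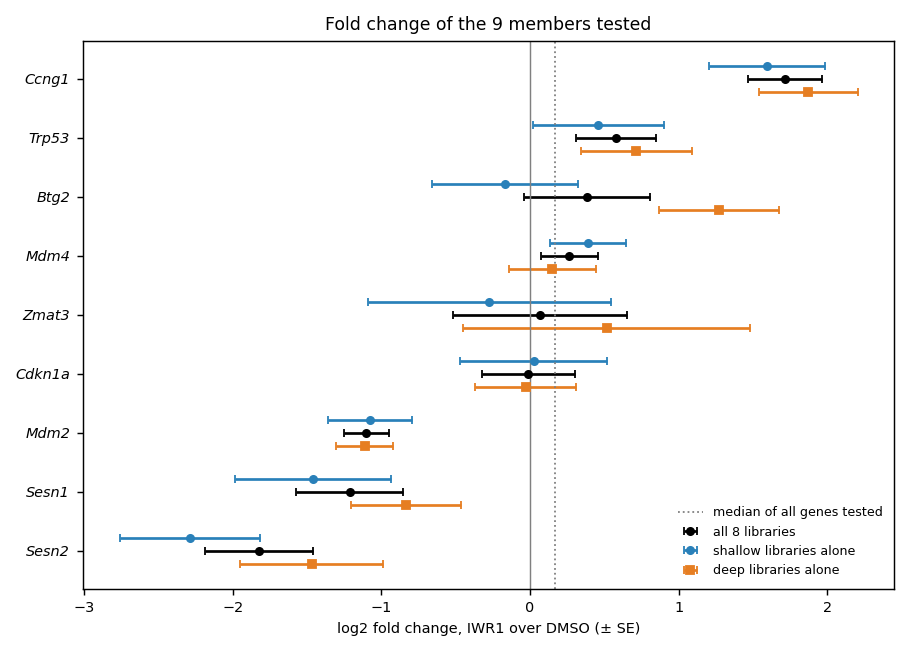
Log2 fold change, IWR1 over DMSO, of the 9 members tested, with SE, from all 8 libraries (black) and from the 4 libraries with low (blue) or high (orange) totals. The dotted line is the median of all genes tested, 0.17. Ccng1 and Mdm2 had the same direction in both sets of libraries, at 1.71 and -1.10 over all 8 libraries, while Btg2 was -0.17 in the libraries with low totals and 1.27 in those with high totals.

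Of 47 other genes known as p53 targets, tested from a list of 55, 9 rose (19.1%) and 12 fell (25.5%), close to the 23.3% and 25.4% of all genes tested, and their median log2 fold change was -0.02. Among the death genes, Pmaip1, which encodes the BH3-only protein Noxa, rose to 30.3 ± 5.88 FPKM in IWR1, against 5.33 ± 1.91 FPKM in DMSO (SD, n = 4; edgeR adjusted p = 4.07e-05). Bax, the pore-forming effector of apoptosis, fell to 5.29 ± 2.10 FPKM in IWR1, against 14.9 ± 2.52 FPKM in DMSO (SD, n = 4). Bbc3, which encodes the BH3-only protein Puma, did not pass, at 0.322 ± 0.258 FPKM in IWR1 and 1.12 ± 0.609 FPKM in DMSO (SD, n = 4; edgeR adjusted p = 0.0818). Ppm1d, which encodes the phosphatase Wip1 that shuts down p53 signalling, fell by 1.47 (SE 0.19), and Ei24, an endoplasmic reticulum gene of autophagy, fell by 1.72 (SE 0.20). Ankra2 rose by 1.25 (SE 0.17). The stress cytokine gene Gdf15 rose by 3.21 (SE 0.69) to 5.15 ± 2.12 FPKM in IWR1, against 0.449 ± 0.312 FPKM in DMSO (SD, n = 4), and Gadd45a, of growth arrest, whose model overlaps E230016M11Rik, fell by 1.23 (SE 0.33).

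Of 31 regulators of p53 tested, 3 rose (9.68%) and 14 fell (45.2%), against 23.3% and 25.4% of all genes tested, with a median log2 fold change of -0.42. Those that fell included the deacetylase gene Sirt1, with a log2 fold change of -2.25 (SE 0.26), and the DNA-damage kinase gene Prkdc, with -1.82 (SE 0.23). The p53 kinase gene Trp53rk had -2.56 (SE 0.34). The checkpoint kinase genes Atm and Chek2 also fell, with -0.71 (SE 0.18) and -1.47 (SE 0.21), while Atr and Chek1 had -0.37 and 0.25 and did not pass (edgeR adjusted p = 0.498 and 0.320). Hipk2, a kinase of p53, rose by 1.91 (SE 0.31), although its model overlaps Tbxas1 and is uncertain. Cdkn2a, whose Arf product blocks Mdm2, did not pass the filter on low counts.

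Genes for ribosomal and nucleolar proteins linked to Mdm2 when ribosome assembly is disturbed were mostly lower. Of 17 tested, none rose and 16 fell (94.1%, against 25.4% of all genes tested), with a median log2 fold change of -2.24, and the other, Rpl26, did not pass (edgeR adjusted p = 0.0691), with levels of 0 to 0.452 FPKM in IWR1 and 0.782 to 1.44 FPKM in DMSO. Rpl11, a main Mdm2 binder, was at 66.4 ± 9.52 FPKM in IWR1 and 282 ± 36.6 FPKM in DMSO (SD, n = 4; edgeR adjusted p = 1.11e-05). Log2 fold changes were -1.90 (SE 0.23) for Rpl5, its partner in the 5S particle, -2.19 (SE 0.20) for Rps14 and -2.51 (SE 0.24) for Rps3. The nucleostemin gene Gnl3 fell by 2.18 (SE 0.21). The Rps3 and Gnl3 models hold snoRNA genes, the Gnl3 model also overlaps Glt8d1, and that of Rpl5 overlaps Dipk1a. Most of these genes are ribosomal protein genes, which were known to fall together in these libraries when the list was made. Rps27l is in this list and also among the other p53 targets that fell.

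Of 16 paralogs of the members tested, 7 rose (43.8%) and 3 fell (18.8%), against 23.3% and 25.4% of all genes tested, with a median log2 fold change of 0.74. Sesn3, the third sestrin, rose to 15.1 ± 2.49 FPKM in IWR1, against 5.80 ± 2.61 FPKM in DMSO (SD, n = 4; edgeR adjusted p = 0.00476), where Sesn1 and Sesn2 fell. Ccng2 rose by 0.82 (SE 0.21) and Ccni by 2.02 (SE 0.21), as did Ccng1, with the Ccni model overlapping Septin11. Cdkn1c, which encodes the kinase inhibitor p57, rose by 2.33 (SE 0.45), while Cdkn1b, which encodes p27, had 0.96 and did not pass (edgeR adjusted p = 0.325). Btg4, the oocyte member of the BTG family and an adaptor of maternal mRNA decay, rose by 2.66 (SE 0.32), and its model overlaps Mir34b, Mir34c and Hoatz. The p53 relative Trp73 rose by 2.83 (SE 0.56) and Trp63 had 0.66 and did not pass (edgeR adjusted p = 0.152). Those that fell were Zmat2 (-1.30, SE 0.24), Zmat5 (-2.20, SE 0.33), whose model overlaps Cabp7, and Tob2 (-0.55, SE 0.19), whose call was lost without any 1 of 7 libraries. Differences between paralogs were not tested.

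Partners of the members' proteins are set beside the same 23.3% higher and 25.4% lower of all genes tested. Of 13 cyclins, kinases and Pcna that p21 binds, 2 rose (15.4%) and 6 fell (46.2%), with a median log2 fold change of -0.51. The mitotic kinase gene Cdk1 was at 119 ± 20.2 FPKM in IWR1 and 385 ± 23.7 FPKM in DMSO (SD, n = 4). The cyclin genes Ccna2, whose model overlaps Exosc9, and Ccnb1 fell, with -1.55 (SE 0.18) and -1.47 (SE 0.18), and the kinase gene Cdk6 rose by 1.58 (SE 0.36). Of 18 deadenylation and poly(A)-binding genes, with which Btg2 acts, 6 rose (33.3%) and 7 fell (38.9%), with a median of 0.29. Pabpc1, the somatic poly(A)-binding protein gene, fell by 1.62 (SE 0.21), and the CCR4-NOT genes Cnot1, Cnot8 and Cnot10 had -0.77 (SE 0.16), -0.85 (SE 0.17) and -1.07 (SE 0.22), with the Cnot1 model overlapping Setd6 and 4930513N10Rik. Rqcd1 of the same complex also fell, with -0.69 (SE 0.17). Cnot4, Cnot6l and Cnot7 rose, by 0.81 (SE 0.22), 0.86 (SE 0.21) and 0.63 (SE 0.20). The Rqcd1 model overlaps Usp37 and that of Cnot7 overlaps Vps37a. Of 25 genes of the GATOR complexes and mTORC1, 4 rose (16.0%) and 5 fell (20.0%), with a median of -0.19, and Mtor, at -0.32, did not pass (edgeR adjusted p = 0.274). The GATOR2 gene Mios fell by 0.99 (SE 0.19). The GATOR1 gene Nprl2 rose by 1.25 (SE 0.24), with a model that overlaps Cyb561d2. The GATOR1 genes Nprl3, whose model overlaps Mpg, and Depdc5 fell, with -1.57 (SE 0.39) and -0.72 (SE 0.20). The Ragulator genes Lamtor3 and Lamtor5 rose by 1.94 (SE 0.20) and 1.64 (SE 0.30). Of 10 genes of PP2A and Gak, which cyclin G1 binds, 3 rose (30.0%) and 2 fell (20.0%), with a median of 0.11. The catalytic subunit gene Ppp2cb, whose model overlaps Ubxn8, fell by 1.83 (SE 0.20), and the regulatory subunit genes Ppp2r5a and Ppp2r5c rose by 0.90 (SE 0.21) and 0.78 (SE 0.19). Gak fell by 1.80 (SE 0.30).

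**Figure D4:**
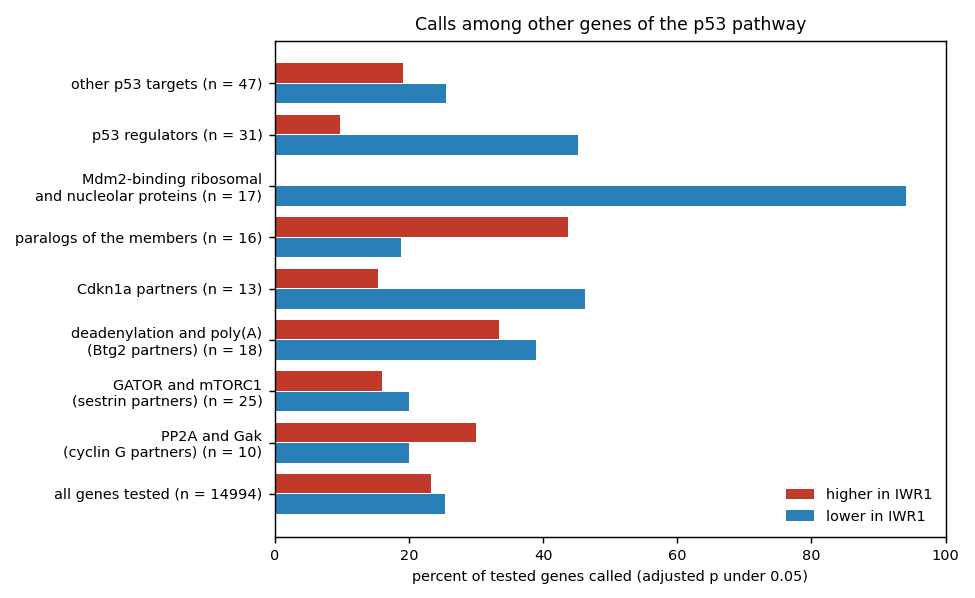
Percent of tested genes called higher (red) or lower (blue) in IWR1 for 8 lists around p53 and for all genes tested (edgeR adjusted p under 0.05), with the number tested in parentheses. Ribosomal and nucleolar genes, labelled there as Mdm2-binding, stand at 94.1% lower and 0% higher. Other p53 targets stand at 19.1% higher and 25.5% lower, against 23.3% and 25.4% of all genes.

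The genes most alike in pattern were sought by Pearson's r of log2(CPM + 1) over the 8 libraries, among the 7070 tested genes whose mean FPKM was 5 or more. These points share the difference between groups and the library totals, so r describes likeness only. For Mdm2 they were Meaf6 (r = 0.999), Safb (r = 0.999) and Polr2d (r = 0.997). For Trp53 they were Mgat4a (r = 0.942), the p53 target Trp53inp1 (r = 0.931), which rose by 0.71 (edgeR adjusted p = 0.0104), and Olfr329-ps (r = 0.931). Cdkn1a had weaker matches, Akap8l (r = 0.880), Gm4567 (r = 0.877) and Slc37a3 (r = 0.833), none of which passed the test between groups.

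The authors' lists of changed open chromatin placed a region inside 3 of the 10 genes. The deposited lists hold 2345 regions that were more open and 1400 that were less open in IWR1, without a value per library. A region less open in IWR1 lay inside Mdm2 (chromosome 10, 117697170 to 117698170, coordinates as deposited), 12588 bases downstream of its start site, and Mdm2 was the single member with such a region within 10 kb, where 6.59% of tested genes had one. Regions more open in IWR1 lay inside Cdkn1a (chromosome 17, 29096347 to 29098521), 2578 bases beyond its downstream start site, and inside Sesn1 (chromosome 10, 41899187 to 41900187), 11748 bases beyond its downstream start site. These were 2 of 10 members, where 14.9% of tested genes had a more open region within 10 kb. Of these genes, Mdm2 had lower RNA and a less open region, Sesn1 had lower RNA and a more open one, and Cdkn1a RNA did not pass the test. The remaining 7 had none within 10 kb, and the nearest to Ccng1, the member that rose, was 121607 bases away. Whether the regions lie in exons or introns was not analysed here.

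**Figure D5:**
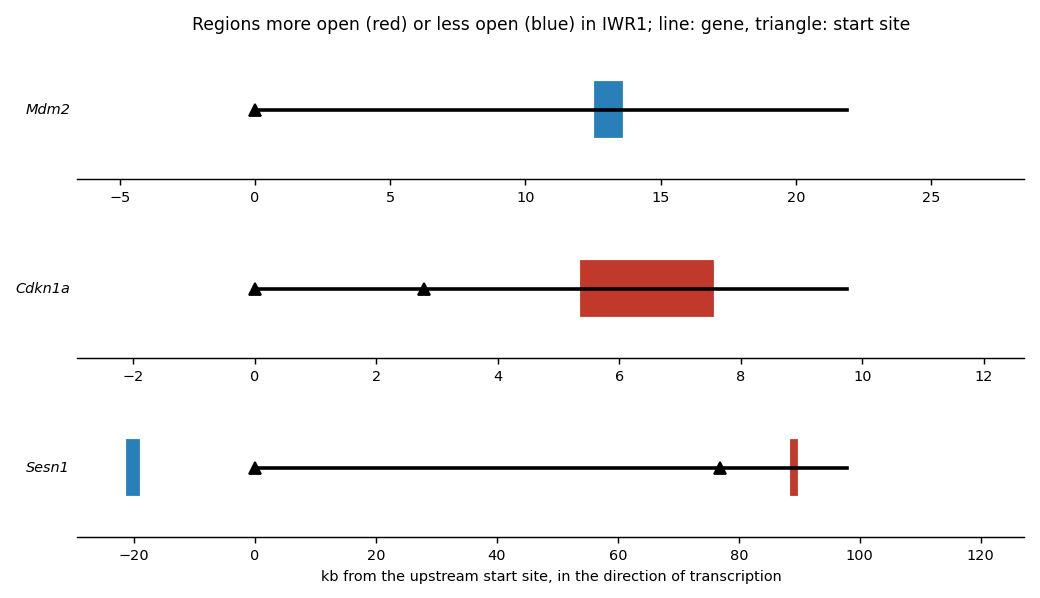
Deposited regions more open (red) or less open (blue) in IWR1 around Mdm2, Cdkn1a and Sesn1, against distance in kb from the upstream start site in the direction of transcription. Black lines are the genes and triangles the start sites. The region in Mdm2 starts 12588 bases from its start site, and a less open region also lay 19198 bases upstream of Sesn1.

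By position, 3 members sit close together on chromosome 1: Mdm4, Btg2 and Phlda3 lie within 2783 kb, from 132986105 to 135769134. Their log2 fold changes were 0.26 for Mdm4 and 0.38 for Btg2, neither of which passed the test, and Phlda3 had counts in IWR1 alone.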

How the data were processed

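RNA-seq (4 libraries per group) and ATAC-seq (2 per group) came from embryos cultured with IWR1 or DMSO. Per the file headers, the RNA-seq table the authors deposited holds raw counts for each gene in each library. Per the labels' protocols, libraries were made with the SMART-Seq v4 kit. The submitters' processing notes name, with no role or order, mm10, STAR 2.5.1b, featureCounts 1.5.0-p1, DESeq2, MACS2, Bowtie2 2.2.6, Trim Galore, cutadapt 1.11 and bcl2fastq. Strand use in counting was not stated there. FPKM was computed from counts, deposited gene length and library totals, and differed from the FPKM the authors deposited for DMSO by at most 2.62e-10. The log2 fold changes and adjusted p-values the authors deposited are their own comparison and were quoted only as theirs. The ATAC-seq lists give regions only, so their depth is unknown, and their calling and pooling were not stated in the labels.

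The table has no entry without a gene name. IWR1 columns carry numbers 5 to 8 where the labels have 1 to 4, so they were assigned to the group, and 12 further per-library columns were left unused. edgeR 4.0.16 (quasi-likelihood, filterByExpr, TMM, treatment as the only term, two-sided, Benjamini-Hochberg over all genes tested) ran in R 4.3.3 with DESeq2 1.42.0 as an alternative, after a test on simulated counts. There, of 14434 genes, 98 were changed by 1 and 97 by 2 on the log2 scale. The test recovered 16.3% and 68.0% of them, with 7 false calls. The SE is the fold change over the square root of F. Ratios used log2(FPKM + 0.1) in SciPy 1.17.1. P-values measure the spread between libraries from separate collections. Positions came from a RefSeq table of GRCm38.p6, the build of mm10.

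The members and lists were chosen with earlier results of these data known. Named genes are the members, up to 4 called genes per list by smallest adjusted p, and the 3 genes most like Trp53, Mdm2 and Cdkn1a; a gene that this rule names is not reported here. Others, such as Bax, Bbc3, Gdf15, Gadd45a, Atm, Chek2, Hipk2, Rpl5, Sesn3, Ccng2, Cdkn1c, Trp73 and Wrap53, and the mismatch limit for paired decamers, were chosen after values were seen. Alternatives covered scaling, test, filter, depth and each library left out.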

Additional observations from a re-analysis of the deposited data

Results flagged for a closer look

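The level of Ccng1 in IWR1 library 8, 8.81 FPKM, stood apart from the other IWR1 libraries, which were at 9.87 to 10.0 FPKM. Of 19 groups of 4 libraries examined in this way, this was the single one, and chance flags about 1 in 20. The value is still above every DMSO library.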

How the results depend on the processing

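Mdm2 and Ccng1 stayed called in the same direction under each alternative run: scaling (RLE, library totals, median-centred libraries), DESeq2, no filter, each library left out, and libraries with low or high totals alone. The number of members called higher, 1, became 3 with library totals alone (adding Trp53 and Mdm4), 2 without the filter and 2 among the libraries with low totals (adding Phlda3), and ranged from 1 to 2 with a library left out. The second was Phlda3, which has no DMSO count and enters a filtered fit only where its IWR1 counts carry it past the filter, so these calls add no support. The number called lower, 3, became 1 among the libraries with high totals (Mdm2 alone) and ranged from 2 to 3 with a library left out. Over all genes, 1906 were higher and 2088 lower among the libraries with low totals and 2063 were higher and 2802 lower among those with high totals, each fit having 4 libraries where the main one had 8. Of 176 other pathway genes tested, 34 were higher and 64 lower, against 18 and 40 among the libraries with low totals and 17 and 53 among those with high totals.

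Of the 5 members that did not pass the test, Trp53 and Mdm4 stayed above 0 under each alternative run, and Cdkn1a, Zmat3 and Btg2 changed sign under some. Cdkn1a had a log2 fold change of 0.0433 with RLE scaling, 0.16 with library totals alone, 0.0433 by DESeq2 and 0.0252 among the libraries with low totals, and -0.23 to 0.29 with a library left out. Zmat3 had -0.28 and Btg2 -0.17 among the libraries with low totals, and Zmat3 had -0.17 to 0.34 with a library left out. The cause was not tested.

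With a library left out, the log2 ratio of Mdm2 to Trp53 differed by -1.89 to -1.55 and that of Mdm2 to Mdm4 by -1.54 to -1.25, where 3 against 4 libraries cannot go below p = 0.0571 in an exact permutation test. Among the libraries with low and high totals, added after seeing the data, the differences were -1.56 and -1.83 for Mdm2 to Trp53 and -1.46 and -1.31 for Mdm2 to Mdm4. Within 100 kb instead of 10 kb, 5 members had a changed region, with 3 of 10 near a more open one and 4 of 10 near a less open one, against 39.4% and 22.1% of tested genes. No paired analysis was possible because the IWR1 columns do not carry the replicate numbers of the labels. Zmat3 and Phlda3 had the fewest counts of the members in IWR1, 240 and 235. Phlda3 counts did not follow library totals. It had 0 counts in IWR1 library 8 (total 27408106) and 29 in IWR1 library 7 (total 20395940).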
